A study of Oryza sativa with 8 samples.

Results

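The wild type rice line WYG7 was grown in the field that received no nitrogen fertiliser (NN field, 0 kg N per ha). Parent seeds were of low (WYG7-LN) or of high nitrogen content (WYG7-HN), and the leaf methylomes of both were compared. The LN seeds came from parents grown without nitrogen fertiliser, and the HN seeds from parents given 300 kg N per ha. Seed nitrogen content and the field of the parents therefore cannot be told apart. The list of differentially methylated regions (DMRs) of this comparison was taken whole and held 26288 DMRs, of 100479 in the 4 comparisons of the series. Its table of differentially methylated genes (DMGs) held 10941 genes, or 57.0% of the 19182 genes found in at least 1 of the 4 tables. The other comparisons set LN against HN seed in WYG7 in the fertilised field (HN field, 300 kg N per ha) and in Ox1, a line carrying extra OsNAR2.1 under its own promoter, in both fields. Each condition was 1 library of bisulfite-treated DNA, the plants pooled into it are not described, and Ox1 is 1 line. The labels give the tissue as shoot and the study's methods as leaf of mature plants, and no value in the lists allows a check of the tissue. No library was shared between comparisons.

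Plant DNA is methylated at cytosines in 3 sequence contexts, CG, CHG and CHH. CG methylation is copied at replication by MET1, CHG methylation is kept by chromomethylases such as CMT3, and DRM enzymes, guided by small RNAs bound to Argonaute proteins, set methylation in all contexts. Methylation is dense over transposons and repeats, and many expressed genes carry CG methylation in their bodies. Bisulfite changes unmethylated cytosine so that it is read as thymine. The lists gave a position and a direction for each DMR without level, coverage, context or strand, so the depth behind each DMR is unknown. A DMR of higher methylation is called hyper and one of lower methylation hypo. These words were read here as LN relative to HN, since the study sets its LN plants against HN plants as the control, but the lists themselves do not name the reference. A DMG is a gene whose interval, the gene and 1 kb upstream of it, overlaps a DMR. Without replicate libraries no difference has a replicate error, no test was made, and the intervals given are Wilson 95% intervals that cover counting error over DMRs. DMRs next to each other are not independent, so these intervals are narrower than the true uncertainty.

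Hyper-DMRs made up most of the list. Read as LN relative to HN, methylation was higher in WYG7-LN at 16962 DMRs and lower at 9326. This gave 64.5% hyper-DMRs (interval 63.9% to 65.1%). The study's genome-wide levels do not settle this reading. For the NN field its text gives WYG7-LN a higher total level than WYG7-HN, but lower levels in all contexts. Its sequencing counts show fewer methylated cytosines in WYG7-LN, among more cytosines covered. The reading was not tested. The hyper share lay between 62.6% on chromosome 5 and 66.4% on chromosome 2, so hyper-DMRs were the majority on each of the 12 chromosomes. By comparison, the hyper share was 45.9% in WYG7 in the HN field, 33.7% in Ox1 in the NN field and 75.4% in Ox1 in the HN field. DMRs were densest on chromosome 10, at 80.3 per Mb, and least dense on chromosome 3, at 58.7 per Mb, where a chromosome was taken to end at the last listed position. DMRs of both directions covered 7.74 Mb, of which 4.96 Mb were hyper and 2.77 Mb hypo.

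Hyper-DMRs and hypo-DMRs were of nearly the same length. The median was 237 bp for hyper-DMRs (quartiles 166 and 361 bp) and 236 bp for hypo-DMRs (quartiles 162 and 364 bp). The hyper share was 62.9% among DMRs of 100 to 149 bp, 65.4% among those of 200 to 299 bp and 63.8% among those of 500 to 999 bp. Among the 239 DMRs of at least 1000 bp it was 51.9% (interval 45.6% to 58.1%), below that of each shorter class. The longest hyper-DMR had 1854 bp (chromosome 11, 17502791 to 17504644) and lay in LOC_Os11g30090. The longest hypo-DMR had 2480 bp (chromosome 9, 6420321 to 6422800) and lay in LOC_Os09g11500. These genes were named after their values were seen.

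DMRs were unevenly spaced. The gap between neighbouring DMRs had a median of 4513.5 bp, with quartiles of 904 and 16873.8 bp, and 26.2% of the 26276 gaps were at most 1 kb. The longest stretch without a DMR was 765976 bp (chromosome 4, 15094166 to 15860141), more than 2 times the longest on any other chromosome, which was 362599 bp on chromosome 12. When DMRs with gaps of at most 1 kb were joined into chains, 14957 DMRs stood alone and the other 11331 (43.1%) fell into 4434 chains. There were 232 chains of 5 or more DMRs, and 220 of them held both directions. The overall hyper share alone would give both directions in most chains of this size, and the number it would give was not computed. The longest chains had 14 DMRs, 7 hyper and 7 hypo each. One spanned 10581 bp on chromosome 11 (17752608 to 17763188, across LOC_Os11g30530 and LOC_Os11g30540). The other spanned 10646 bp on chromosome 1 (7781013 to 7791658, across LOC_Os01g13890, LOC_Os01g13900 and LOC_Os01g13910). These genes, too, were chosen after the values were seen.

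Close neighbours were more often of opposite direction than the hyper share alone would give. If directions were drawn from the overall shares, 54.2% of neighbouring pairs would be of the same direction. Of pairs at most 1 kb apart, 51.0% were (interval 49.8% to 52.2%). The deficit lay at short gaps. Same-direction pairs made up 45.5% of 956 pairs with a gap of 0 to 50 bp, 44.5% of 609 pairs at 51 to 100 bp and 40.3% of 947 pairs at 101 to 200 bp (interval 37.3% to 43.5%). The share was 52.6% at 201 to 500 bp and 56.7% at 501 to 1000 bp, and stayed between 54.6% and 56.5% at longer gaps. A further 236 neighbouring pairs overlapped by at most 4 bp, and 67.4% of these were of the same direction.

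**Figure D1:**
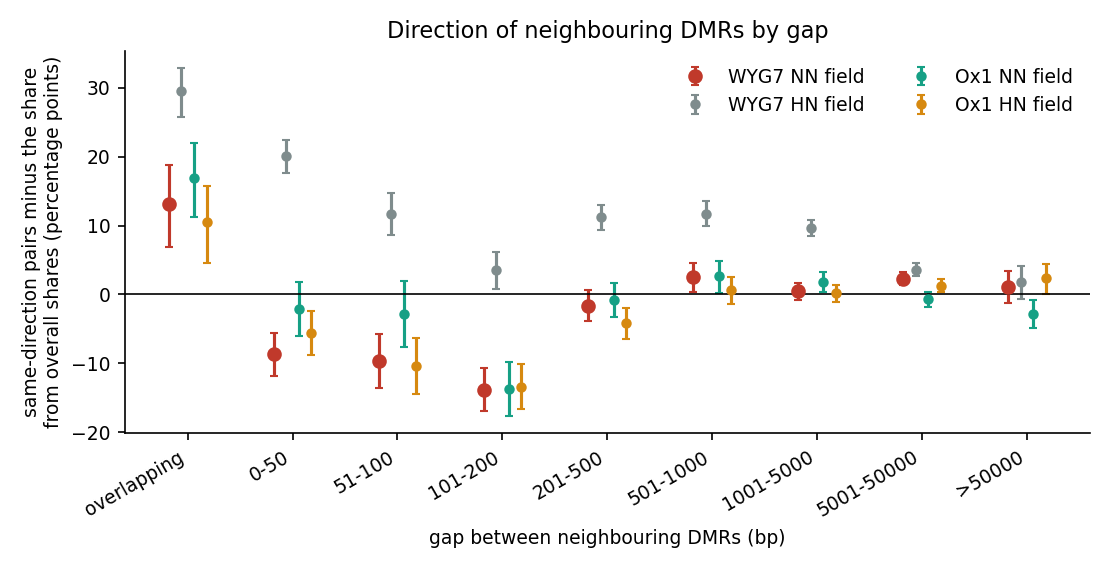
Share of neighbouring DMR pairs of the same direction minus the share given by the overall hyper and hypo shares, in percentage points, by the gap between the DMRs in bp. Points are the 4 comparisons and bars are Wilson 95% intervals; WYG7 in the NN field (large red points) was at -13.9 points at gaps of 101 to 200 bp.

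The same gap class was the lowest of all in Ox1 in both fields, and the lowest below 5 kb in WYG7 in the HN field. Same-direction pairs with a gap of 101 to 200 bp made up 41.5% in Ox1 in the NN field, against 55.3% from its overall shares, and 49.6% in Ox1 in the HN field, against 62.9%. In WYG7 in the HN field the share was 53.8%, and did not fall below the 50.3% of its overall shares. At gaps of 0 to 50 bp both fields of the wild type were furthest apart, as 70.4% of pairs had the same direction in WYG7 in the HN field and 45.5% in WYG7 in the NN field.

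Across windows of 100 kb the list was spread widely. Of 3736 windows, 164 had no DMR, and the median was 6 DMRs (quartiles 3 and 10). The densest window held 36 DMRs, 19 hyper and 17 hypo (chromosome 5, 15400001 to 15500000), and 10 DMGs. The same window held 29, 33 and 26 DMRs in WYG7 in the HN field, Ox1 in the NN field and Ox1 in the HN field. It was also the window with most hypo-DMRs. LOC_Os05g26570 had the most DMRs in it, 3 hyper and 2 hypo over 4593 bp. The second densest window, with 31 DMRs (15 hyper, 16 hypo; chromosome 11, 20200001 to 20300000), held 34 in WYG7 in the HN field but 4 and 3 in Ox1 in the NN and HN fields. It thus stood apart in the wild type in both fields and not in Ox1. The most hyper-DMRs in a window were 21, reached on chromosomes 4, 6 and 10. In the first of these (chromosome 4, 26800001 to 26900000), LOC_Os04g45440 had the most DMRs, 7 hyper and 1 hypo.

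**Figure D2:**
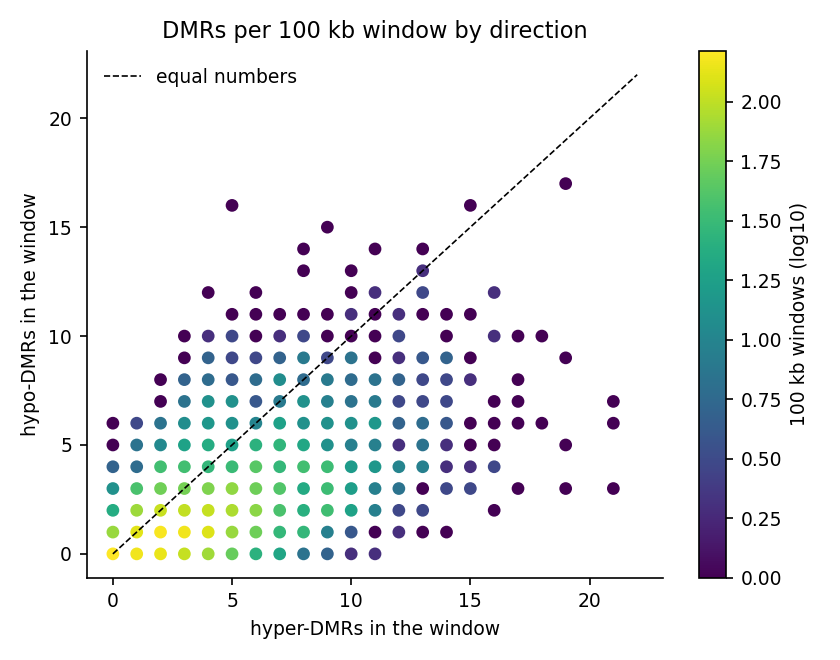
Hypo-DMRs against hyper-DMRs in each of 3736 windows of 100 kb, coloured by the number of windows on a log10 scale; the dashed line marks equal numbers. Most windows lie on the hyper side of the line, and the window with 19 hyper-DMRs and 17 hypo-DMRs is the densest.

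Of 997 windows with at least 10 DMRs, 22 were at least 90% hyper and 0 were at least 90% hypo, while hypo-DMRs outnumbered hyper-DMRs in 157. The overall share of 64.5% hyper-DMRs alone would give more windows of the first kind than of the second. The numbers it would give were not computed. Windows shifted by 50 kb gave 37 of 1 direction in place of 22. In 4 of the 22 windows all DMRs were hyper, among them 11 DMRs on chromosome 2 (10800001 to 10900000) and 11 on chromosome 10 (10300001 to 10400000). The first of these windows held 6 DMRs (2 hyper) in WYG7 in the HN field, 4 (2 hyper) in Ox1 in the NN field and 12 (10 hyper) in Ox1 in the HN field. The second held 4 (1 hyper), 9 (5 hyper) and 7 (6 hyper) in the same order.

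Most DMGs held a single DMR. Of the 10941 genes, 7324 had 1 DMR, 2078 had 2 and 825 had 3, and 3617 (33.1%) had 2 or more. By direction, 6257 genes (57.2%) had hyper-DMRs alone, 2602 (23.8%) hypo-DMRs alone and 2082 (19.0%) both. A DMR counted for a gene when it overlapped its interval by at least 52 bp, the least by which any listed gene was reached. There were 352 genes with 5 or more DMRs. Their median interval was 6952 bp, against 3436.5 bp for genes with 1 DMR. Of the DMRs in genes, 4.43% (741) lay in more than 1 DMG, 714 of them in DMGs whose intervals overlap, and 920 DMGs had no DMR of their own.

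**Figure D3:**
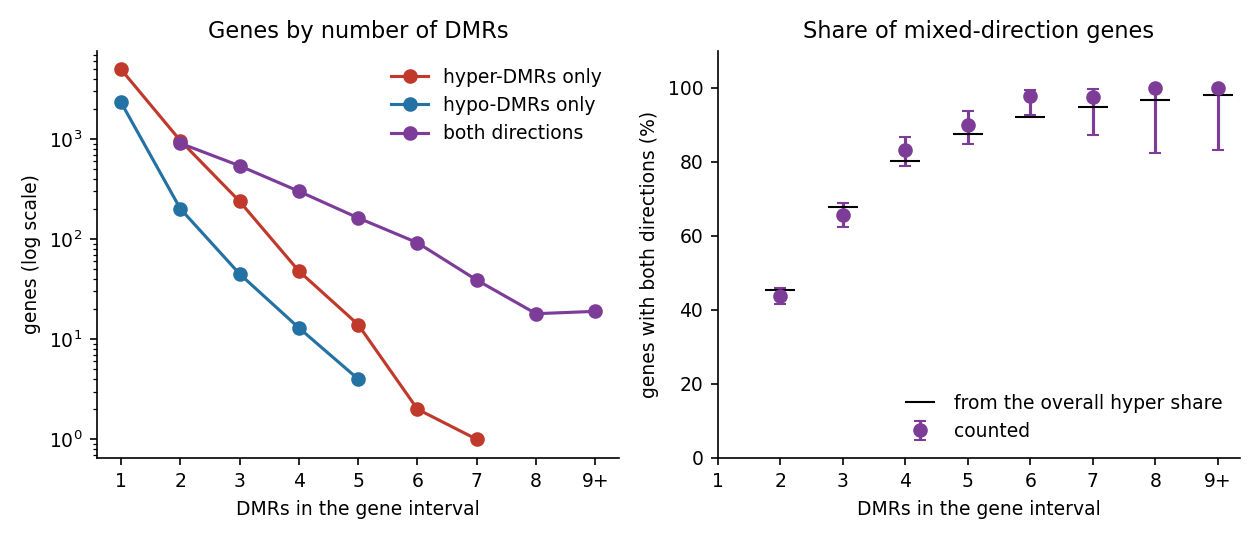
Left, number of genes (log scale) by the number of DMRs in the gene interval, for genes with hyper-DMRs only, hypo-DMRs only and both. Right, share of genes with both directions in percent with Wilson 95% intervals, beside the share given by the overall hyper share of gene DMRs (black marks); counted and given shares are 43.7% and 45.3% for genes with 2 DMRs.

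Mixed-direction genes were close in number to what the overall hyper share gives. Of genes with 2 DMRs, 43.7% were mixed, and the overall share of 65.4% hyper among DMRs in genes would give 45.3%. For genes with 3 DMRs these values were 65.6% and 67.9%, for 4 DMRs 83.1% and 80.3%, and for 6 DMRs 97.9% and 92.0%. All 37 genes with 8 or more DMRs were mixed, where the overall share would give 96.6% at 8 DMRs and 98.1% at 9 or more. In 68.2% of the mixed genes (1419) the direction changed once along the interval, and in 211 genes it changed 3 times or more. A single change is the only order possible in the 909 mixed genes with exactly 1 hyper-DMR and 1 hypo-DMR. The closest pair of opposite DMRs within a mixed gene had a median gap of 320.5 bp, and in 59.8% of mixed genes it was at most 500 bp.

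The genes with most DMRs were mixed throughout, as the overall hyper share alone would give for nearly all of them. LOC_Os04g47059 (chromosome 4, 27915598 to 27940824) had 12 DMRs, 6 hyper and 6 hypo, which changed direction 7 times. Its first DMR was a hypo-DMR of 249 bp and began 4898 bp into the interval, followed after 396 bp by a hyper-DMR of 254 bp and after a further 251 bp by a hypo-DMR of 462 bp. The last 3 DMRs, of 147, 482 and 527 bp, were all hyper. LOC_Os03g17634 (chromosome 3, 9797352 to 9823129) also had 12, 8 hyper and 4 hypo. Both intervals exceed 25 kb, and their DMR densities were 0.476 and 0.466 per kb.

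The next genes packed a similar number into a much shorter interval. LOC_Os07g23300 (chromosome 7, 13131547 to 13138692) had 7 hyper-DMRs and 3 hypo-DMRs over 7146 bp, or 1.40 per kb. LOC_Os02g30130 (6 hyper, 4 hypo over 7202 bp) and LOC_Os01g17460 (6 hyper, 4 hypo over 6964 bp) were about as dense, at 1.39 and 1.44 per kb. LOC_Os02g12120 had the same numbers over 12407 bp. Of the genes with 9 DMRs that completed the first 10, hypo-DMRs prevailed in LOC_Os07g32310 (3 hyper, 6 hypo), LOC_Os08g35390 (3 hyper, 6 hypo) and LOC_Os09g08180 (4 hyper, 5 hypo). LOC_Os03g01080 had 6 hyper and 3 hypo, among them the third longest hyper-DMR of the list, of 1759 bp. DMRs covered 60.3% of the interval of LOC_Os07g32310 and 60.2% of that of LOC_Os03g01080. By the rarer direction, LOC_Os04g47059 led with 6, and 14 genes had 4. Of these 14, DMRs covered most bases in LOC_Os09g08180, followed by LOC_Os12g36550, LOC_Os11g01920 and LOC_Os04g55530 with 5 hyper and 4 hypo each.

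All 10 of these genes were also listed in the other 3 comparisons. LOC_Os04g47059 had 10 DMRs in WYG7 in the HN field, 9 in Ox1 in the NN field and 13 in Ox1 in the HN field. LOC_Os03g17634 had 14, 4 and 9 in the same order, and LOC_Os07g23300 had 7, 6 and 8. Of the 352 genes with 5 or more DMRs, 97.7% were listed in WYG7 in the HN field, 94.3% in Ox1 in the NN field and 96.0% in Ox1 in the HN field, against 55.9%, 44.9% and 57.5% of all DMGs here. The genes with 5 or more DMRs in both lists were 54.5% of these 352 and 31.9% of the 602 such genes in WYG7 in the HN field. Their intervals were longer, and the part of length in these shares was not tested.

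Genes with many DMRs of a single direction were rare, and the overall hyper share alone would also give few. Of genes with 5 DMRs, 90.1% were mixed, and that share would give 87.5%. The most hyper-DMRs without any hypo-DMR were 7, in LOC_Os04g47560 (chromosome 4, 28203589 to 28210976), with lengths from 153 to 485 bp. It was followed by LOC_Os11g26460 and LOC_Os03g57480 with 6 each, and LOC_Os05g18230 and LOC_Os07g01500 with 5 each. Of hypo-DMRs without a hyper-DMR the most were 5, in LOC_Os11g38540, LOC_Os12g37460, LOC_Os02g05850 and LOC_Os01g61660, and 4 in LOC_Os02g22410. The same genes had both one-sided and mixed patterns in the other lists. LOC_Os04g47560 had 2 hyper and 3 hypo in WYG7 in the HN field. LOC_Os05g18230 had 0 hyper and 2 hypo there, and 0 hyper and 3 hypo in Ox1 in the NN field. LOC_Os11g26460 was hyper throughout, with 1, 2 and 4 hyper-DMRs in WYG7 in the HN field and in Ox1 in the NN and HN fields. LOC_Os11g38540 had 8 DMRs in WYG7 in the HN field, 3 hyper and 5 hypo, and 0 hyper and 2 hypo in Ox1 in the NN field, and was not listed in Ox1 in the HN field. LOC_Os01g61660 had 3 hyper and 5 hypo, 0 hyper and 4 hypo, and 3 hyper and 1 hypo in WYG7 in the HN field and Ox1 in the NN and HN fields.

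**Figure D4:**
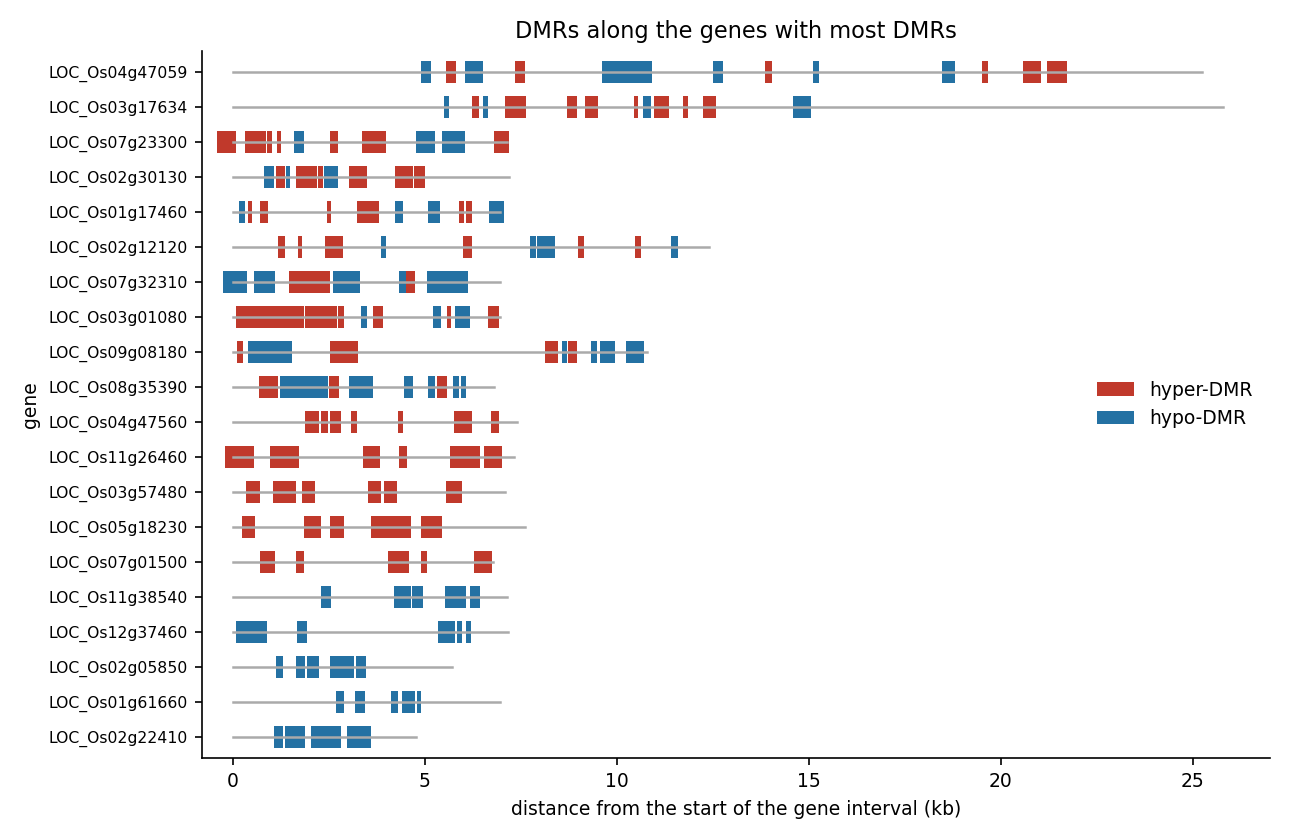
DMRs (red, hyper; blue, hypo) drawn to scale along the intervals of the 10 genes with most DMRs and of the genes with most DMRs of 1 direction, by distance from the interval start in kb. Grey lines are the gene intervals, drawn in order of position and not of transcription; LOC_Os04g47059 changes direction 7 times, and the 7 DMRs of LOC_Os04g47560 are all hyper.

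The largest covered shares of an interval were found in short intervals, of which a DMR of given length covers a larger part. A pair of hyper-DMRs covered 74.7% of the 1342 bp of LOC_Os11g20210 (chromosome 11, 11675008 to 11676349), and both also lay in a neighbouring DMG. Sets of 3 hyper-DMRs covered 66.2% of LOC_Os12g30230 and 61.1% of LOC_Os02g56070. A single hypo-DMR of 1521 bp covered 78.0% of the 1426 bp of LOC_Os12g24620 (chromosome 12, 14092304 to 14093729). Hypo-DMRs covered 69.7% of LOC_Os11g34400 and 66.7% of LOC_Os07g32300. The 3 DMRs of LOC_Os07g32300 were also the first 3 of LOC_Os07g32310, whose interval holds it.

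Intervals of certain exact lengths recurred, and some of these lengths carried many DMRs. Genes were grouped by interval length after the values had been seen, and a length of at least 3000 bp shared by 10 or more genes of the 4 tables was called shared. There were 45 such lengths with 816 genes. Shorter lengths recurred as well but were left out of this group. Among them were 1327 bp in 46 genes (LOC_Os11g34400 and LOC_Os07g32300), 1426 bp in 24 (LOC_Os12g24620) and 1342 bp in 17 (LOC_Os11g20210). Intervals of equal length can be copies of 1 repeated sequence, to which short reads cannot be assigned with certainty. No sequence or annotation was used here, so this was not tested. The most frequent length was 7156 bp, shared by 105 genes on all 12 chromosomes. Of these, 88 (83.8%) were DMGs here, with a mean of 3.73 DMRs, 29 had 5 or more, and 70 (79.5%) were mixed, against 19.0% of all DMGs. Among DMGs with 2 or more DMRs, 89.7% were mixed at this length and 57.6% over all lengths. The mixed share rises with the number of DMRs, of which DMGs had a mean of 3.73 at this length and 1.60 over all lengths. Genes were not matched by DMR number, so these shares do not show mixing particular to this length. Of genes from 6.5 kb to below 8 kb without a shared length, 68.5% were listed, and 33.5% of those listed were mixed. In the other comparisons 93.3% (WYG7, HN field), 91.4% (Ox1, NN field) and 92.4% (Ox1, HN field) of the 105 were listed. Over all genes of the 4 tables the listed shares were 57.0% here and 56.0%, 40.9% and 54.9% in the same order. For the next most frequent lengths the listed shares here were lower. They were 38.5% of 39 genes of 4333 bp and 37.5% of 32 genes of 5223 bp. Of all 816 genes of shared length 64.3% were listed here.

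A length of 6964 bp was that of 3 of the 10 genes with most DMRs. Of the 10 genes of that length 9 were listed here, with 1 to 10 DMRs and a mean of 6.33. Besides LOC_Os01g17460, LOC_Os03g01080 and LOC_Os07g32310, these included LOC_Os02g09550 with 7, LOC_Os06g29210 and LOC_Os10g16860 with 6 each, and LOC_Os03g47720 with 1. Among intervals from 6.5 kb to below 8 kb, the 193 listed genes of shared length had a mean of 3.32 DMRs, and the other 1219 had 2.26. Among intervals from 4.5 kb to below 6 kb these means were 1.58 and 1.59, so a shared length went with more DMRs in some lengths and not in others. Intervals from 6.5 kb to below 8 kb made up 12.9% of DMGs and 54.0% of the genes with 5 or more DMRs.

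**Figure D5:**
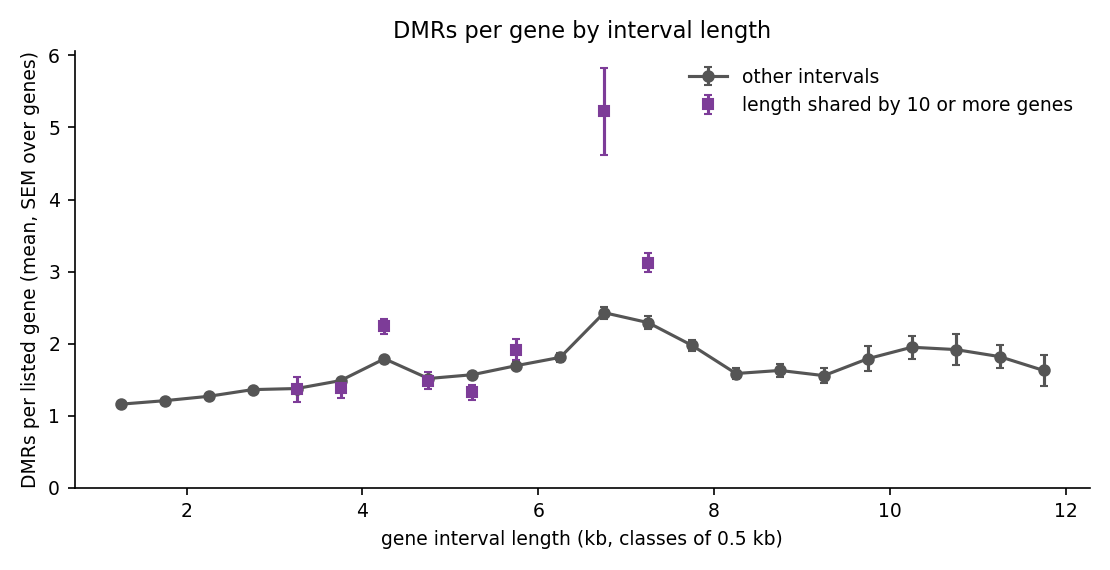
Mean number of DMRs per listed gene (bars, SEM over genes) by interval length in classes of 0.5 kb, for intervals whose exact length is shared by 10 or more genes (purple squares) and for other intervals (grey); classes under 10 genes are left out. Other intervals reach 2.43 at 6.5 to 7 kb and fall to 1.59 at 8 to 8.5 kb, and shared lengths reach 5.22 at 6.5 to 7 kb.

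The direction of DMRs differed among shared lengths. In 7156 bp intervals 53.7% of 328 DMRs were hyper (interval 48.3% to 59.0%), against 65.4% over all DMGs. In Ox1 in the HN field the values were 64.8% and 77.0%, and in the lists with fewer hyper-DMRs they were 46.5% and 45.0% (WYG7, HN field) and 27.6% and 30.4% (Ox1, NN field). In 4333 bp intervals the opposite was seen, as 24 of 26 DMRs were hyper and no gene was mixed, and 90% were hyper in Ox1 in the HN field. In WYG7 in the HN field and Ox1 in the NN field the hyper shares of this length were 38.7% and 22.2%, below the 45.0% and 30.4% over all genes. In 4292 bp intervals 42.0% of 69 DMRs were hyper. Genes of 1 length that share a sequence are not independent of each other, so these intervals are too narrow.

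Many DMGs lay next to each other. Genes in no table were not counted, so the share that the number of DMGs alone would give was not computed. Genes whose locus numbers differ by 10 were taken as neighbours, which leaves the 600 DMGs (5.48%) with other numbers out of most runs. By this rule 48.6% of DMGs had a DMG as direct neighbour, and 474 genes formed 84 runs of 5 or more. In 589 of the neighbouring pairs both genes held the same DMR. With the genes of the 4 tables ordered by start instead, which passes over genes in no table, 4010 genes lay in such runs and the longest had 17 genes. By locus number the longest run had 10 genes, from LOC_Os10g12650 to LOC_Os10g12740 (chromosome 10, 7052764 to 7109165). Its 15 DMRs, 9 hyper and 6 hypo, were spread over 52484 bp. Single DMRs were found in 8 of its genes, and LOC_Os10g12690 had 5, 3 hyper and 2 hypo. Of these 10 genes, 7 were listed in WYG7 in the HN field, 6 in Ox1 in the NN field and 4 in Ox1 in the HN field. Over all 474 genes in runs these shares were 66.7%, 56.1% and 68.8%, and over all DMGs 55.9%, 44.9% and 57.5%. In 3 of the 84 runs all DMRs were of the same direction, and in each it was hyper. The longest of these, LOC_Os05g26160 to LOC_Os05g26230 (chromosome 5, 15219483 to 15263601), held 8 genes and 8 hyper-DMRs, and 1 of its genes was listed in WYG7 in the HN field, 5 in Ox1 in the NN field and 4 in Ox1 in the HN field. These runs of 1 direction were picked after their values were seen.

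Neighbouring DMGs did not share a direction more often than the overall shares give. Of 3178 neighbouring pairs, 589 shared a DMR and 1107 others included a mixed gene. Of the remaining 1482 pairs, 59.0% had the same direction (interval 56.5% to 61.5%), and the overall shares of hyper-only and hypo-only genes would give 58.5%.

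DMRs outside the intervals of listed genes made up 36.3% of the list, or 9555 DMRs. Of these 63.2% were hyper (interval 62.2% to 64.1%), against 65.3% of the DMRs inside (interval 64.6% to 66.0%). They were shorter, with a median of 212 bp against 251 bp, and lay a median of 6693 bp from the nearest DMG. There were 1838 within 1 kb of one, of which 136 reached into an interval by less than the 52 bp required. The most distant DMR lay 249233 bp from any DMG (chromosome 10, 19795426 to 19795696).

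Genes that the study measured without printing an identifier, among them OsNRT2.1, OsNRT2.2, OsNRT2.3a and OsATL15, were not looked up. Of the 15 loci with a printed identifier, OsActin aside, 7 were DMGs here, and 6 were in none of the 4 tables. Of the 9 found in any table these 7 stand beside the 57.0% of all such genes. The study chose several of them from these lists, so their presence is no independent evidence. DRM1b, of the family of de novo methyltransferases, had a hyper-DMR of 680 bp (LOC_Os12g01800, DMR at 485258 to 485937 on chromosome 12). AGO1a, an Argonaute protein that binds small RNAs, had a hyper-DMR of 448 bp that began 6209 bp into its interval of 12693 bp (LOC_Os02g45070). OsAMT4, of the ammonium transporter family, had a hypo-DMR of 112 bp (LOC_Os03g53780). None of these 3 genes was listed in another comparison.

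The other named loci were listed elsewhere with differing directions. OsMADS59, a MADS-box transcription factor gene, had a hypo-DMR of 425 bp here, of which 140 bp lay in its interval (LOC_Os06g23950), and hyper-DMRs in the HN field in both WYG7 and Ox1. At OsWAKY54 (LOC_Os05g40080), the list held a hypo-DMR of 180 bp here and a hyper-DMR in Ox1 in the HN field. OsATL16 (LOC_Os01g41400) had hypo-DMRs of 186 and 150 bp that lay 253 bp apart. In the HN field it had 1 hyper-DMR and 2 hypo-DMRs in WYG7, and 1 hyper-DMR and 1 hypo-DMR in Ox1. The locus LOC_Os11g02480, which the primer list gives for both OsWAKY46 and OsWAKY59, so that its name is in doubt, was mixed. It had a hyper-DMR of 247 bp and a hypo-DMR of 157 bp 201 bp further on, and 1 hypo-DMR each in WYG7 and Ox1 in the HN field. No DMR was listed in any comparison for OsNAR2.1, the partner protein of nitrate transporters that Ox1 overexpresses, or for the methyltransferase genes OsMET1, OsCMT2, OsCMT3, OsDRM2 and OsDRM3.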

How the data were processed

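Leaf DNA of 8 libraries, 1 per condition, was sequenced after bisulfite conversion. Per the labels and methods, the authors used Bismark 0.9.0 with the IRGSP-1.0 genome and called DMRs between the LN and HN libraries with SMART, under limits on coverage, cytosine number, length, difference and p-value. The deposited values are positions in bp with a direction or an MSU locus, and the authors' lists hold no other measure. Replicates, read depth per DMR and strand are not given in the sources used here. Samples were grouped by their titles. No column of values was left without a comparison.

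Positions were read as 1-based with both ends included. Counts, gaps, chains, windows of 100 kb, overlaps and runs were computed with Python 3.11.15 (matplotlib 3.10.9 for plots, scipy 1.17.1, pandas 2.3.3, numpy 2.4.6). The functions were tested on simulated lists. The members, lists and gene rules were chosen with earlier results of these data known. Genes named were those with a locus in the study's text or primer table (OsActin left out), the 10 with most DMRs, the 5 mixed genes with most DMRs of the rarer direction, the 5 with most DMRs of each direction alone, the 3 most covered of each direction, the longest run, and the top gene of the window with most DMRs of each direction. Ties were broken by DMR bases, then position. The RefSeq gene table given is of another assembly without MSU loci, so 0 loci were matched, and no sequence, strand or promoter was analysed. Alternatives were other DMR lengths, merging, overlaps, gaps, windows and run rules.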

Additional observations from a re-analysis of the deposited data

Results flagged for a closer look

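The hyper share of DMRs lay on the other side of an even split from that of WYG7 in the NN field in 2 comparisons. It was 64.5% here, 45.9% in WYG7 in the HN field and 33.7% in Ox1 in the NN field. Each side rests on 1 library, and the difference was not tested.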

How the results depend on the processing

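No paired analysis was possible because each condition had 1 library. Of 29 alternatives, 17 left the value within its limit. The limit was the counting interval or, for counts, 1.5 times. For mean DMRs per listed gene of shared length from 6.5 kb to below 8 kb, it was the standard deviation over genes, which is wide. That mean was 3.32, and 3.05 or 3.35 with other limits for a shared length. The hyper share stayed between 64.1% and 64.9%. With DMRs of at least 200 bp alone, the median gap was 7886 bp, genes with 2 or more DMRs were 2253, mixed genes 1222 and DMRs outside DMGs 31.9%. Fewer DMRs enter these counts by construction. With same-direction DMRs at most 100 bp apart merged, the median length was 245 bp (hyper) and 241 bp (hypo) and the median gap 4964 bp. The same-direction share was 48.4% for gaps of at most 500 bp and 52.8% for at most 5 kb, and all alternatives stayed below the 54.2% given by the overall shares. Windows shifted by 50 kb gave 37 windows of 1 direction in place of 22. Genes in runs numbered 1050 for runs of at least 4 genes, and 4010 when genes of the 4 tables alone were ordered by start, which leaves out genes in no table and gave a longest run of 17. Alternatives without genes or DMRs of shared interval length, without overlapping neighbours, or with other limits for a shared length were chosen after seeing the data. Without genes of shared length, 3305 genes had 2 or more DMRs and 1867 were mixed. Promoter against body DMRs and DMR sequence, with its flank alternative, were not run, as no genome or strand was used. The coverage behind each DMR limits all counts to an extent the lists cannot show.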
